A study of Mus musculus with 17 samples.

Results

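The FOS family of mouse consists of 4 genes, Fos, Fosb, Fosl1 (which encodes FRA1) and Fosl2 (which encodes FRA2), and their mRNA was followed here over 13 polyA RNA-seq libraries of macrophages. The members were taken by gene symbol from a table of 24453 gene models. All 4 were found, each as a single protein-coding model. On mm10, Fos lies on chromosome 12 from 85473901 to 85477270 (plus strand), Fosb on chromosome 7 from 19302696 to 19310045 (minus strand), Fosl1 on chromosome 19 from 5447698 to 5455938 (plus strand) and Fosl2 on chromosome 5 from 32136472 to 32157839 (plus strand). Each model has 4 exons, and values were summed over the exons, 2088 bases for Fos, 3770 for Fosb, 1699 for Fosl1 and 5857 for Fosl2.

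FOS proteins are basic leucine zipper factors that form no stable dimers with each other. They pair with JUN proteins to make the activating form of AP-1, which binds the element TGAGTCA. In resting cells Fos is kept low, and a mitogen or a Toll-like receptor ligand turns it on within minutes through serum response factor (SRF), ternary complex factors of the ELK family and CREB, all acting on sites upstream of the gene. The message is then removed quickly through AU-rich elements in its 3′ end. FOS and FOSB carry transactivation domains that FRA1 and FRA2 lack, and FRA1 and FRA2 are usually made later and last longer.

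Immortalised bone marrow-derived macrophages (iBMDMs) came from male C57Bl/6EiJ marrow transformed by a retrovirus with BRAF(V600E) and Myc, were at passage 3-8 and received vehicle only. They carried Cas9 and a lentivirus with guides, and infected cells were sorted on the viral marker tagBFP2. The study's methods describe no cloning step. The groups are labelled Scramble (zsGreen in the titles), Atf3KO, JunKO and JunDKO, with 2 libraries each, and all 4 groups share the oncogenes and Cas9. Thioglycollate-elicited macrophages (TGEMs) were peritoneal cells of 8-week mice labelled male, collected 3 days after injection. They were plated for a day and given PBS vehicle or, for 1 h, KLA. KLA (Kdo2 lipid A) is the active core of bacterial lipopolysaccharide and acts through TLR4. There was 1 library per treatment for the C57Bl/6EiJ strain (C57Bl/6J in the study's methods), while Balb/cJ had 1 with vehicle and 2 with KLA. The labels do not say that the libraries of a group came from separate cultures or mice, so the p values measure the spread between these libraries, which may be technical.

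Values are reads per kilobase of exon and of sequencing depth (RPKM), and depth ran from 1553296 reads (JunDKO replicate 1) to 18444443 (JunDKO replicate 2). All 10 macrophage markers were at 1 RPKM or more in every library. Although every library is labelled male, the TGEM libraries held 863 to 8676 reads of Xist, against 0 to 3 in iBMDMs. In the libraries labelled for a knockout the RNA of the targeted gene was not reduced by the test. The Scramble libraries held 80.7 and 77.4 RPKM of Atf3, which stood at 154 and 169 RPKM under the label Atf3KO. Jun was at 26.2 and 20.5 RPKM under JunKO (Scramble 17.6 and 18.5), and Jund at 6.94 and 6.07 RPKM under JunDKO (Scramble 9.19 and 8.33). A small edit can leave the transcript in place, so exonic RNA is no test of it. The study checked the knockouts at the protein level by western blotting, which was not analysed here, and the groups are called by their labels. The labels date all iBMDM libraries to 17-12-03 except Atf3KO replicate 2, dated 18-02-18.

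Fos, Fosb and Fosl2 have a promoter in the RefSeq table (GRCm38.p6, the mm10 build), and these 3 are shown. Any link between these letters and the levels of the genes was not tested. The window runs from 250 bases before to 50 after the RefSeq start of the gene, on the strand of the gene. Capitals mark matches to TGACG (the core shared with the CREB element TGACGTCA), to TATAAA and to an NF-kB site, searched on both strands. No promoter of the 3 holds the whole TGACGTCA or the AP-1 element TGAGTCA.
Fos, chr12:85473640-85473939, plus strand: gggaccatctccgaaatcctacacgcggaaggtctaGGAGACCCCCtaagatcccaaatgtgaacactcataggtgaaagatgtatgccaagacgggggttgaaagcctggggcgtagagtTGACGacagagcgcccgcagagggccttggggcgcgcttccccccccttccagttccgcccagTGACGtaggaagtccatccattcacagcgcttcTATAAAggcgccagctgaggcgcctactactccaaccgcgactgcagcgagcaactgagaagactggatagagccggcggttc
Fosb, chr7:19309996-19310295, minus strand: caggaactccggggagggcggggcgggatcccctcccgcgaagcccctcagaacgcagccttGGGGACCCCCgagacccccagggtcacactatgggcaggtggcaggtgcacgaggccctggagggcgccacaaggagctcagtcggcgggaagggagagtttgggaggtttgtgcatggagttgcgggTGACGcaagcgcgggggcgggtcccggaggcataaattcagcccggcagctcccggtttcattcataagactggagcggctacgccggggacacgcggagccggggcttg
Fosl2, chr5:32136222-32136521, plus strand: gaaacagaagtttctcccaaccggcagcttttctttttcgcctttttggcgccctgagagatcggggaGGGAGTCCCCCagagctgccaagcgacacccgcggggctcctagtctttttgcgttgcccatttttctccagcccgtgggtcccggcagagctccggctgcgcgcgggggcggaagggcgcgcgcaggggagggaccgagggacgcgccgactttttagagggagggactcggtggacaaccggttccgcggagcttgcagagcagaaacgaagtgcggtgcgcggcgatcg

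Relative to the start, Fos has TGACG at -129 and -66 and TATAAA at -33, Fosb has TGACG at -60, and Fosl2 has neither. An NF-kB match begins at -214 in Fos, at -188 in Fosb and at -182 in Fosl2, where a further match overlaps it from -181. Over all 32851 promoters of this length in the table, 20.8% held TGACG, 13.6% TATAAA, 8.46% the NF-kB site, 5.20% TGAGTCA and 1.79% TGACGTCA. SRF binds the CArG box, which was searched in the 500 bases before the start. It was found 1 time in Fos, at -309, and 1 time in Fosb, at -272, and not in the window of Fosl2, while 2.75% of the 32851 windows held it. Of 18 other immediate-early genes with a window, 2 held it, Egr2 and Zfp36. The boxes are printed below in capitals with 10 bases on either side.
Fos, chr12:85473571-85473600, plus strand: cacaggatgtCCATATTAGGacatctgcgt
Fosb, chr7:19310298-19310327, minus strand: tggccgagctCCTTATATGGctaattgcgt

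The 3′ untranslated regions also differ among the members. Fos has 4 copies of ATTTA in 815 bases and Fosl2 has 8 in 4653 bases, while Fosb has 1 in 2145 bases and Fosl1 1 in 638 bases. The longer AU-rich element TTATTTATT occurs 1 time each in Fos and Fosl2 and not in Fosb or Fosl1, against 6.92% of 17553 models with a 3′ untranslated region and 6 of 21 other immediate-early genes. At least 3 copies of ATTTA were found in 32.4% of all those models and in 61.9% of the 21. The 2 sites are printed with that element in capitals. These matches are descriptions of the letters only.
Fos: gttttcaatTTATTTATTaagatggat
Fosl2: tttattttaTTATTTATTttaaatgtt

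Fos and Fosl2 were the members with measurable RNA in all 13 libraries. Fos was lowest in Atf3KO replicate 1, at 2.40 RPKM, and highest in the C57Bl/6EiJ KLA library, at 152 RPKM, with a median of 8.06 RPKM. Fosl2 ran from 1.55 RPKM in Atf3KO replicate 1 to 50.6 RPKM in Balb/cJ KLA replicate 2, with a median of 6.58 RPKM. Fosl1 reached 3.79 RPKM at most and had no read in 3 libraries. Fosb never exceeded 0.566 RPKM and had no read in 6 libraries, all of them iBMDMs. Ordered upwards by group mean on the log2(RPKM + 1) scale, Fos ran from Atf3KO through Scramble, JunKO, C57Bl/6EiJ vehicle and Balb/cJ vehicle in steps of 0.14 to 0.26, each smaller than the residual SD of 0.54 between libraries. The next steps, to JunDKO (0.90), to Balb/cJ KLA (1.44) and to C57Bl/6EiJ KLA (1.60), were larger than that SD. For Fosl2 the residual SD was 0.25. Its order was Atf3KO, JunKO, Balb/cJ vehicle, Scramble, JunDKO, C57Bl/6EiJ vehicle, C57Bl/6EiJ KLA and Balb/cJ KLA, and only the steps from Balb/cJ vehicle to Scramble (0.21) and from Scramble to JunDKO (0.18) were within it.

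**Figure D1:**
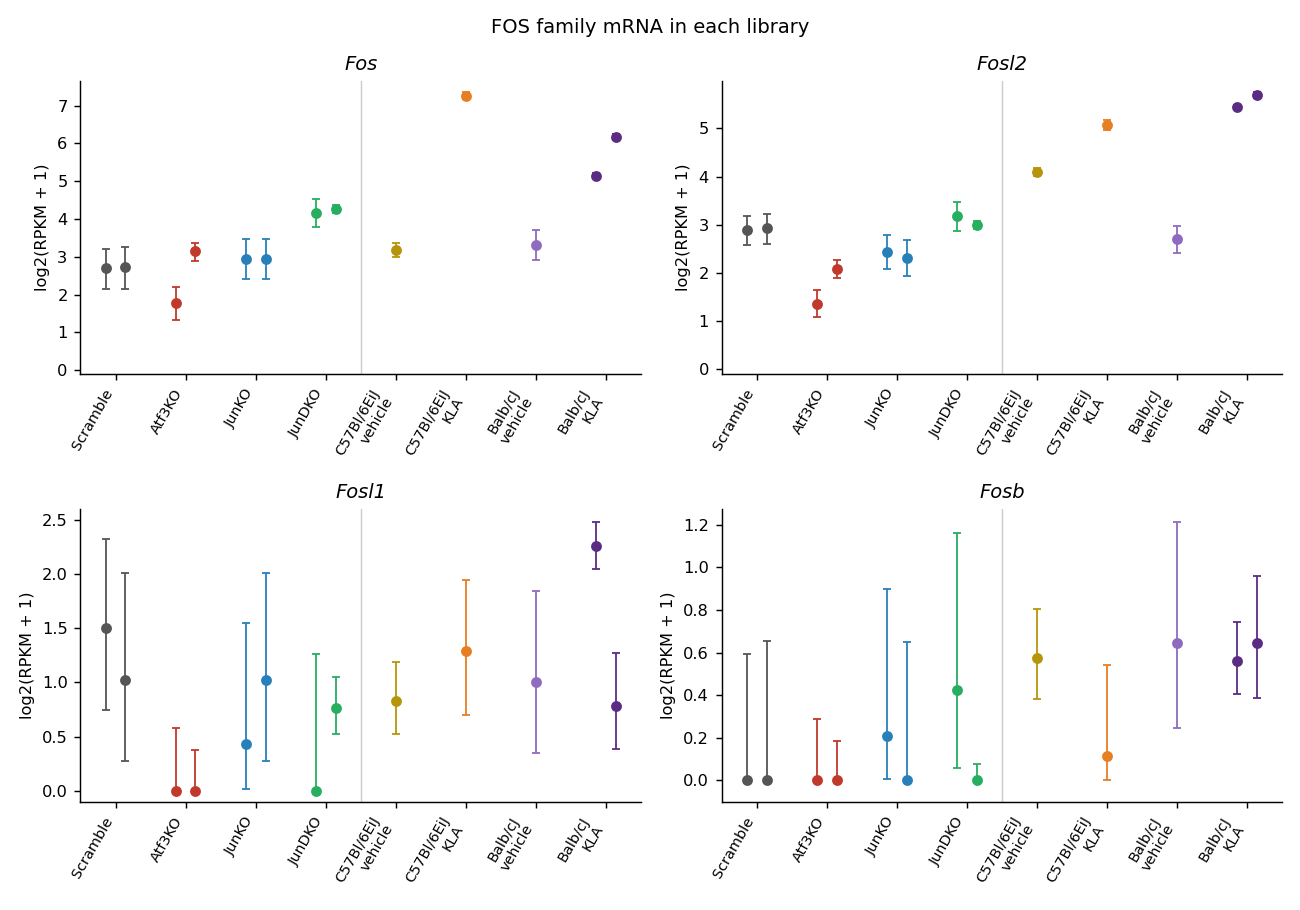
Level of each FOS family gene on the log2(RPKM + 1) scale, 1 point per library, by group (iBMDMs left and TGEMs right of the line), with the exact Poisson 95% interval of its reads, which covers counting error only. The y axes differ between genes, and the 3 KLA libraries hold the highest values of Fos and of Fosl2.

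Because RPKM is per length, the make-up of the family can be compared within a library. Fos made 40.0% and 42.4% of the summed FOS family RPKM in the Scramble libraries and Fosl2 46.6% and 49.8%, with Fosl1 at 13.4% and 7.81%. Fos held the larger share in all 6 other iBMDM libraries. Its share was 57.9% and 57.2% in JunKO, 67.0% and 70.5% in JunDKO and 60.7% and 70.7% in Atf3KO. The sum behind these shares was not the same. It was 13.7 and 13.2 RPKM in Scramble and 11.6 and 11.7 RPKM in JunKO. JunDKO had the larger sums, 25.3 and 25.9 RPKM, and Atf3KO the smaller, 3.95 and 11.0 RPKM. In C57Bl/6EiJ TGEMs the order of the members turned over with KLA, from 31.7% Fos and 63.3% Fosl2 in the vehicle library to 81.7% and 17.5%. In Balb/cJ TGEMs it went from 56.1% Fos and 34.1% Fosl2 to 42.4% and 52.3% in KLA replicate 1 and 57.8% and 41.2% in KLA replicate 2. Set against the summed RPKM of the 3 JUN genes, the FOS family sum was 0.167 and 0.200 of it in Scramble and 0.146 and 0.160 in JunKO. It was 0.459 in each JunDKO library, and 0.0419 and 0.0399 in those of Atf3KO. The Atf3KO ratios stand on unlike JUN sums, 94.2 RPKM in replicate 1 and 277 RPKM in replicate 2, against 81.8 and 66.0 RPKM in Scramble. In TGEMs the ratio ran from 0.0764 to 0.209, so JUN gene RNA exceeded FOS gene RNA in every library. Within the summed RPKM of all 15 AP-1 genes considered (the family and 11 partners), the FOS family made 4.92% and 4.93% in Scramble, 0.930% and 1.75% in Atf3KO and 7.93% and 8.45% in JunDKO. The highest share was 12.3%, in the C57Bl/6EiJ KLA library, where Fos lay above 98.7% of the 24453 models by RPKM.

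**Figure D2:**
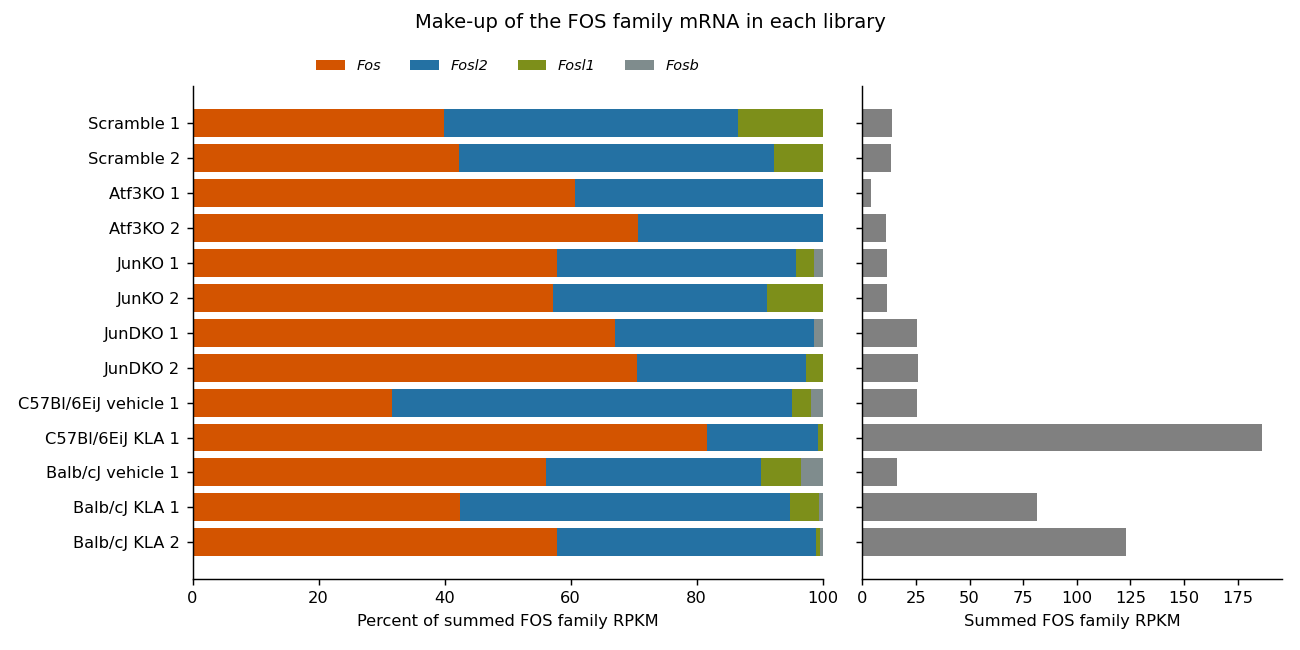
Left, percent of the summed FOS family RPKM held by each member in each library (bars sum to 100). Right, the sum in RPKM, which runs from 3.95 in Atf3KO replicate 1 to 187 in the C57Bl/6EiJ KLA library.

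The libraries labelled Atf3KO were compared with Scramble to ask how the family stands when the partner and repressor ATF3 is targeted. Fosl2 measured 1.55 and 3.23 RPKM against 6.37 and 6.58 in Scramble, so both values lay under both controls. It fell by 1.19 on the log2 scale (± 0.28 SE, 95% interval -1.82 to -0.55, n = 2 per group, limma-trend adjusted p = 0.0117), and was the 1 of 2 tested members that passed the threshold of an adjusted p under 0.05. Of 10691 genes tested 41.2% passed in this comparison and 20.6% passed with a fall. Fosl2 stayed short of 16 RPKM, which a call here also requires, beside a 2-fold change. Without Scramble replicate 2 its adjusted p was 0.0678, and over 18 alternatives it ran from 0.00294 to 0.0678.

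Fos in the same libraries measured 2.40 and 7.81 RPKM, on either side of the 5.46 and 5.60 of Scramble. The difference was -0.26 ± 0.39 (95% interval -1.15 to 0.64, adjusted p = 0.620). The sign rested on which Atf3KO library was used. With Atf3KO replicate 1 alone, the library whose label date is that of Scramble, Fos was lower by a log2 difference of -0.94 (adjusted p = 0.0217), and with replicate 2 alone the difference was 0.43 (adjusted p = 0.116). Fosl1 had 6 and 3 reads in Scramble (1.83 and 1.03 RPKM) and 0 reads in both Atf3KO libraries, at depths of 4397166 and 7236837 reads against 1929989 and 1711541 in Scramble. The Scramble over Atf3KO ratio of read rates had an exact lower 95% limit of 6.31, and was 9.58 with the Atf3KO group set at 3 reads, counting error only. The Atf3KO libraries also held reads of the fewest gene models, 10425 and 10631 against 12207 and 12491 in Scramble at lower depth, and the part of this in the values of Fosl1, Fosl2 and the genes at 0 was not tested. It was too low to be tested by the limit of a mean of 1 RPKM. With no such limit its log2 difference was -1.26 and its adjusted p 0.0310. Fosb had no read in Scramble or in Atf3KO.

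The counts of the related lists in Atf3KO are read against the 41.2% of all tested genes that passed, 20.7% with a rise and 20.6% with a fall. Of 11 listed AP-1 partners 8 were tested, and 4 rose and 0 fell (median log2 difference 0.85, against 0.05 over all tested genes). These were Jund (2.19), the repressor Jdp2 (1.09), Atf3 itself (1.02) and the stress factor Atf4 (0.77). The Atf3KO libraries were far apart for Jund, at 22.6 and 83.005 RPKM. Among 18 other immediate-early genes tested 1 rose, Ier5 (1.18), and 4 fell, Gadd45b (-3.20), the prostaglandin synthase Ptgs2 (-2.74), the MAP kinase phosphatase Dusp1 (-2.49) and the kinase Plk2 (-1.97), with a list median of 0.23. Dusp1 had no read in either Atf3KO library (8.30 and 2.41 RPKM in Scramble), and Gadd45b and Ptgs2 had none in replicate 1, so the sizes of their falls depend on the pseudocount. Among 8 tested genes of the ERK feedback and output list 4 fell, the inhibitor Spred1 (-1.83), the phosphatase Dusp4 (-1.25), Spred2 (-1.003) and Dusp6 (-0.67), and 1 rose, Etv5 (0.58). Of 17 regulators 2 rose, the kinase Mapk3 (ERK1, 1.296) and Rps6ka1 (0.86), and 4 fell, among them Rps6ka3 (-1.07), the ternary complex factor Elk1 (-0.87) and Map2k1 (-0.69).

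In the libraries labelled JunDKO the family's change was in Fos. Fos measured 17.0 and 18.3 RPKM against 5.46 and 5.60 in Scramble, and no library of the 2 groups overlapped. It rose by 1.51 ± 0.39 (95% interval 0.62 to 2.41, n = 2 per group, limma-trend adjusted p = 0.0423), which met the 2-fold and 16 RPKM limits of a call. The study's methods also name a limit of 2 on the log2 scale for these knockouts, which Fos did not reach. In this comparison 11.7% of 10691 genes passed the adjusted p and 6.93% passed with a rise, and 4.97% met all limits. The median of all tested genes was itself 0.23, and with library medians made equal the change of Fos was 1.24 (adjusted p = 0.0889). The adjusted p was 0.157 without Scramble replicate 1, 0.180 without Scramble replicate 2, 0.199 without JunDKO replicate 1, 0.214 without JunDKO replicate 2, and 0.0848 and 0.0850 without JunKO replicates 1 and 2, whereas the size stayed between 1.46 and 1.56. Over 19 alternatives the adjusted p ran from 0.00242 to 0.214.

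Fosl2 stood at 8.02 and 6.96 RPKM in JunDKO, above the 6.37 and 6.58 of Scramble, and differed by 0.18 ± 0.28 (95% interval -0.46 to 0.82, adjusted p = 0.712). With library medians made equal the difference turned to -0.08. Fosl1 had 0 reads in JunDKO replicate 1 and 22 reads (0.702 RPKM) in the deeper replicate 2. The ratio of its read rates in Scramble over JunDKO was 2.25 (exact 95% interval 0.91 to 5.08, counting error only), which includes no difference. Fosb had 2 reads (0.342 RPKM) in JunDKO replicate 1 and 0 in replicate 2, where 0 reads allow up to 0.0531 RPKM at the upper 95% limit. Beside the 11.7% of all tested genes that passed in JunDKO, 6.93% with a rise and 4.82% with a fall, none of the 8 tested AP-1 partners and none of the 17 regulators passed. Of 18 tested immediate-early genes 2 rose, Nr4a1 (1.20), an orphan nuclear receptor, and Zfp36 (1.15), which encodes a protein that binds AU-rich elements, and 2 fell, Ptgs2 (-1.85) and Ier3 (-1.18). Of 8 tested genes on the ERK list Dusp4 (-1.88) and Dusp6 (-1.37), phosphatases that act on ERK, fell and Etv5 (0.93) rose.

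No member passed in the libraries labelled JunKO, where 0.281% of tested genes did. Fos measured 6.74 and 6.71 RPKM, above both Scramble values, with a difference of 0.24 ± 0.39 (95% interval -0.65 to 1.14, limma-trend adjusted p = 0.942). Fosl2 measured 4.41 and 3.99 RPKM, below both Scramble values, with a difference of -0.53 ± 0.28 (95% interval -1.16 to 0.11, adjusted p = 0.737). Fosl1 had 1 and 3 reads (0.345 and 1.03 RPKM), and the ratio of its read rates in Scramble over JunKO was 2.11 (0.59 to 9.39, counting error only). Fosb had 1 and 0 reads. None of the tested genes of the 4 other lists passed (8 partners, 17 regulators, 18 immediate-early genes and 8 ERK genes).

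Taken against each other, the knockout groups differed by the test between Atf3KO and JunDKO, on both members, and in neither other pair. Between Atf3KO and JunDKO the values of Fos and of Fosl2 given above did not overlap. Fos was lower in Atf3KO by -1.77 ± 0.39 (95% interval -2.66 to -0.87, limma-trend adjusted p = 0.00891) and Fosl2 by -1.37 ± 0.28 (-2.004 to -0.73, adjusted p = 0.00626). In that comparison 40.7% of genes passed and 25.9% passed with the lower value in Atf3KO, and the limits of a call (2-fold, 16 RPKM), which Fos met, were met by 12.2%. Neither member reached the limit of 2 on the log2 scale. The adjusted p of Fos was 0.0537 without JunDKO replicate 1 and 0.0709 without JunDKO replicate 2, and that of Fosl2 was 0.0504 without JunDKO replicate 1. JunDKO over JunKO gave 1.27 ± 0.39 for Fos (adjusted p = 0.0889) and 0.71 ± 0.28 for Fosl2 (adjusted p = 0.164), where 8.14% of genes passed. Those Fos values were far apart, 17.0 and 18.3 against 6.74 and 6.71 RPKM, and the adjusted p was 0.00770 without Atf3KO replicate 1, 0.00884 without Atf3KO replicate 2 and 0.00644 without both, although neither library is part of that comparison other than through the shared variance. Between Atf3KO and JunKO, where 35.5% of genes passed, neither member did (Fos -0.50 ± 0.39, adjusted p = 0.336, and Fosl2 -0.66 ± 0.28, adjusted p = 0.0950). Without Atf3KO replicate 2 both passed there, Fos at -1.19 (adjusted p = 0.0160) and Fosl2 at -1.02 (adjusted p = 0.0317), while without Atf3KO replicate 1 the difference of Fos was 0.19. These comparisons share libraries and are not independent of each other.

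The related lists are read against the shares of all genes just given, 40.7% for Atf3KO against JunDKO, 8.14% for JunDKO against JunKO and 35.5% for Atf3KO against JunKO. Between Atf3KO and JunDKO 4 of 8 tested AP-1 partners were higher and 0 lower in Atf3KO, Jund (2.57), Jdp2 (1.29), Junb (1.29) and Atf3 (0.90). Of 18 immediate-early genes 4 were higher and 7 lower there, with Klf2 (2.02), Btg2 (1.55) and Ier3 (1.22) among the higher and Gadd45b (-3.50), Dusp1 (-2.20) and Nr4a1 (-1.39) among the lower. Of the 8 ERK genes 3 were higher and 2 lower, and of the 17 regulators 1 was higher and 4 lower. Between JunDKO and JunKO the immediate-early genes that passed were Nr4a1 (1.79) and Nr4a2 (1.48), both higher in JunDKO. On the ERK list Dusp4 (-1.13), Dusp6 (-1.06) and Ccnd1 (-0.89) were lower, the ternary complex factor Elk4 (1.03) was the regulator that passed, and 0 of 8 partners did. Between Atf3KO and JunKO 3 partners were higher and 0 lower in Atf3KO, 2 immediate-early genes were higher and 5 lower, 0 ERK genes were higher and 1 lower, and 3 regulators were higher and 3 lower.

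**Figure D3:**
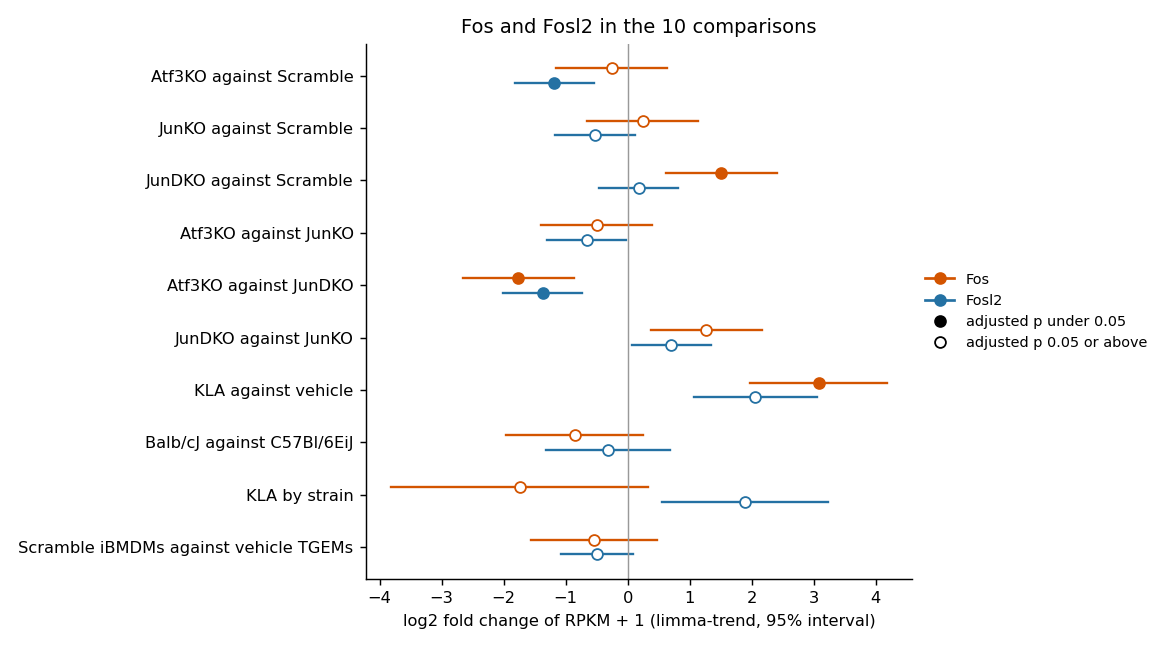
Fitted log2 fold change of RPKM + 1 with its 95% interval for Fos and Fosl2 in the 10 comparisons (limma-trend), first group over second. Filled points passed an adjusted p under 0.05, which Fos did in 3 comparisons and Fosl2 in 2.

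Fos was higher after 1 h of KLA in TGEMs of both strains. Fos stood at 8.06 RPKM with vehicle and 152 RPKM with KLA in C57Bl/6EiJ, and at 9.00 RPKM with vehicle and 34.5 and 71.0 RPKM with KLA in Balb/cJ. Every KLA library was above every vehicle library. With strain in the fit the change was 3.08 ± 0.47 (95% interval 1.98 to 4.19, n = 3 KLA and 2 vehicle libraries, limma-trend adjusted p = 0.0234), and it met the limits of a call. Of 10357 tested genes 1.53% passed, 1.29% with a rise, and 1.13% met all limits. Among libraries with the same label date the log2 differences were 4.08 in C57Bl/6EiJ and 1.83 in Balb/cJ. The adjusted p was 0.118 without the C57Bl/6EiJ vehicle library and 0.113 without the C57Bl/6EiJ KLA library (change 2.34 in each), 0.144 without the Balb/cJ vehicle library (change 4.08), 0.0593 with library medians made equal, 0.0709 after quantile normalization, 0.165 with label date in place of strain (change 2.95), 0.166 with no filter on low values and 2.75e-06 by limma-voom on recovered reads. In simulated libraries of these depths the limma-trend fits of the TGEMs passed more unchanged genes than the adjusted p allows, so their adjusted p values may be too small.

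Fosl2 also had its higher values in the KLA libraries, 32.7 against 16.1 RPKM in C57Bl/6EiJ and 42.5 and 50.6 against 5.47 RPKM in Balb/cJ. Its change of 2.06 ± 0.43 (95% interval 1.06 to 3.06) did not pass over all genes (adjusted p = 0.0852, unadjusted p = 0.00166). The adjusted p fell to 0.0307 without the C57Bl/6EiJ vehicle library, to 0.0286 without the C57Bl/6EiJ KLA library (change 2.87 in each), to 0.00257 with all 13 libraries in 1 fit and to 5.69e-04 by limma-voom, and without the Balb/cJ vehicle library the change was 0.98 (adjusted p = 0.656). Fosl1 was tested here and differed by 0.49 ± 0.47 (adjusted p = 0.645). Its values were 0.774 RPKM (15 reads) and 1.45 RPKM (8 reads) for C57Bl/6EiJ vehicle and KLA, 1.01 RPKM (4 reads) for Balb/cJ vehicle, and 3.79 RPKM (111 reads) and 0.716 RPKM (8 reads) for the Balb/cJ KLA libraries. Balb/cJ KLA replicate 1 thus held 111 of the 127 reads behind the KLA over vehicle ratio of 3.39 (2.09 to 5.82, counting error only), and the other Balb/cJ KLA library lay under the vehicle value.

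Fosb, which is commonly induced together with Fos, had no higher read rate with KLA than with vehicle in either strain, pooled over libraries. It measured 0.488 RPKM (21 reads) with vehicle and 0.082 RPKM (1 read) with KLA in C57Bl/6EiJ. In Balb/cJ it measured 0.566 RPKM (5 reads) with vehicle and 0.477 and 0.564 RPKM (31 and 14 reads) with KLA. The ratio of read rates in KLA over vehicle was 0.90 (exact 95% interval 0.54 to 1.51, counting error only), and the gene lay under the limit for testing in every fit. That ratio pools strains of unlike make-up, since 45 of the 46 KLA reads are from Balb/cJ and 21 of the 26 vehicle reads from C57Bl/6EiJ. Within C57Bl/6EiJ the ratio was 0.17 (0.0040 to 1.04) and within Balb/cJ 0.88 (0.35 to 2.86). Fos was 18.9 times its vehicle value in C57Bl/6EiJ and 3.83 and 7.89 times in Balb/cJ.

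Most of the other immediate-early genes tested were also higher with KLA. Of 20 tested 17 rose and 0 fell (1.29% of all tested genes rose and 1.53% passed), with a median log2 change of 3.01 against -0.15 over all tested genes. The 6 with the largest changes were the zinc finger factor Egr1 (5.76), the phosphatases Dusp1 (5.08) and Dusp2 (4.74), Csrnp1 (5.02), Zfp36 (4.37) and Ier3 (4.16). Plk3 (1.37), Ier5 (1.28) and Klf4 (-0.41) did not pass. Fos, at 3.08, lay close to the median of that list. Of 11 tested AP-1 partners 1 rose, Junb (3.77 ± 0.41, limma-trend adjusted p = 0.00521), from 85.8 to 606 RPKM in C57Bl/6EiJ and from 33.2 to 909 and 650 RPKM in Balb/cJ. Of 9 tested ERK feedback and output genes 3 rose, Dusp5 (3.92), Phlda1 (3.34) and Dusp4 (2.69). None of the 16 tested SRF and MAP kinase regulators passed (median -0.06). Summed markers of fibroblasts and mesothelium were 46.3 and 48.8 RPKM in the vehicle and 26.99 to 48.1 RPKM in the KLA libraries, and neutrophil markers were at 0 to 1.22 RPKM. Eosinophil and mast cell markers summed to 4.12 RPKM with vehicle and 6.52 with KLA in C57Bl/6EiJ, and to 1.27 with vehicle and 1.96 and 6.26 with KLA in Balb/cJ. Lymphocyte markers summed to 8.18 and 6.44 RPKM in C57Bl/6EiJ, and to 4.31 with vehicle and 7.37 and 14.7 with KLA in Balb/cJ. The part of these in the KLA differences was not tested. In bulk RNA, fewer cells of a type and less RNA per cell cannot be told apart.

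**Figure D4:**
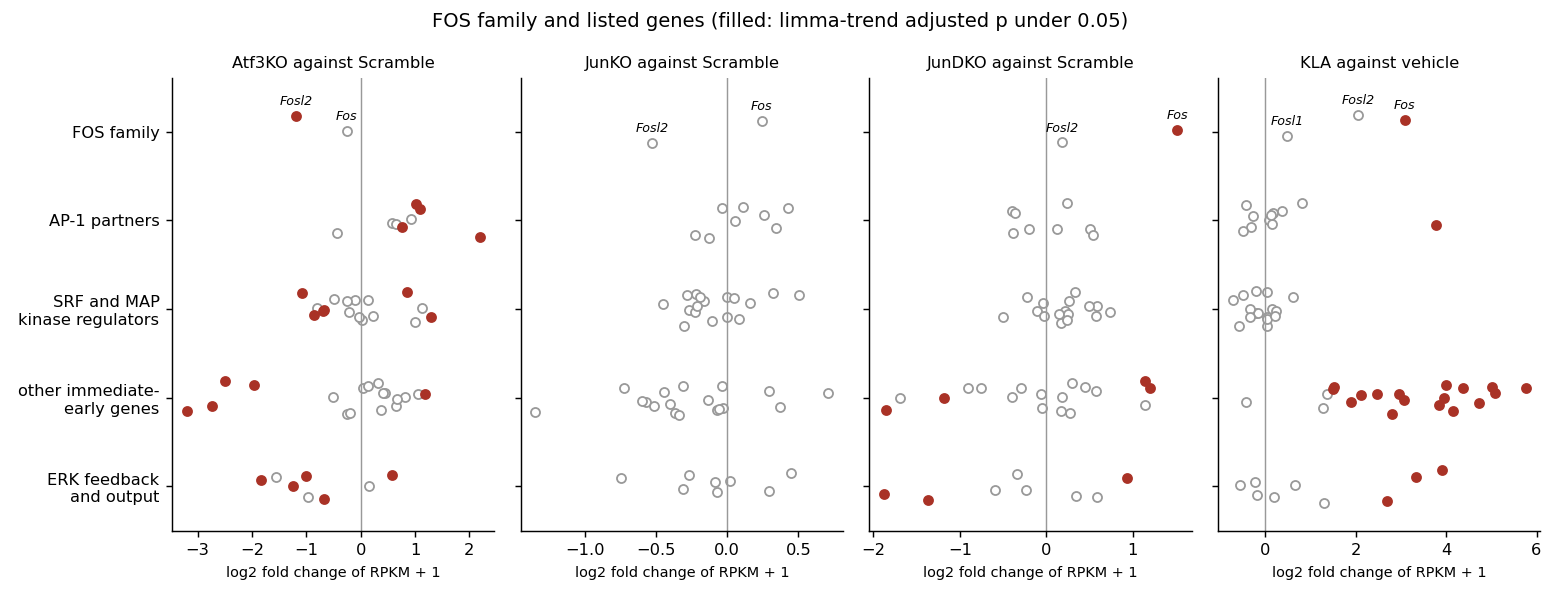
Log2 fold change of RPKM + 1 for the tested genes of the FOS family and 4 related lists in 4 comparisons, 1 point per gene, filled at a limma-trend adjusted p under 0.05 (vertical scatter within a list has no meaning, and the x axes differ between panels). Under KLA 17 of 20 other immediate-early genes are filled and lie right of 0, while no gene is filled in JunKO.

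The response of Fos and that of Fosl2 differed in opposite ways between the strains in these 5 libraries, although neither difference passed. The strains share no label date, so strain and label date cannot be told apart here. For Fos the vehicle values were close, 8.06 RPKM in C57Bl/6EiJ and 9.00 in Balb/cJ, and the KLA values were 152 against 34.5 and 71.0 RPKM. The log2 change with KLA was smaller in Balb/cJ by -1.74 ± 0.80 (95% interval -3.81 to 0.33, limma-trend adjusted p = 0.658). For Fosl2 the gap lay in the vehicle libraries, 16.1 against 5.47 RPKM, and the KLA values were closer, 32.7 against 42.5 and 50.6 RPKM. Its change was larger in Balb/cJ by 1.89 ± 0.52 (95% interval 0.55 to 3.24, adjusted p = 0.527, unadjusted p = 0.0156). In this interaction 0% of 10357 genes passed limma-trend and 8.06% had an unadjusted p under 0.05, and 1 residual degree of freedom was left. Averaged over treatment, Balb/cJ differed from C57Bl/6EiJ by -0.85 ± 0.47 for Fos (adjusted p = 0.334), -0.32 ± 0.43 for Fosl2 (adjusted p = 0.692) and 0.21 ± 0.47 for Fosl1 (adjusted p = 0.825), where 2.31% of genes passed. No tested gene of the 4 related lists passed for strain or for the interaction by limma-trend. The Fos difference was 0.14 without the C57Bl/6EiJ KLA library, and that of Fosl2 was 0.49 without either vehicle library. The Balb/cJ KLA libraries also differed in depth, 17245876 against 6580056 reads, and in the share of reads in exons, 86.4% against 74.1%, and the part of this in their Fos values was not tested.

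Neither Fos nor Fosl2 passed between unstimulated cells of the 2 kinds. Fos was 5.46 and 5.60 RPKM in Scramble iBMDMs and 8.06 and 9.00 RPKM in vehicle TGEMs, a difference of -0.54 ± 0.44 (95% interval -1.56 to 0.47, limma-trend adjusted p = 0.337). Fosl2 was 6.37 and 6.58 RPKM against 16.1 and 5.47, so the Scramble values lay between those of the 2 strains, and the difference was -0.49 ± 0.25 (-1.07 to 0.08, adjusted p = 0.138). Against C57Bl/6EiJ TGEMs alone it was -1.19 (adjusted p = 0.0147), and without the C57Bl/6EiJ vehicle library it was 0.21. With library medians made equal it was -0.79 (adjusted p = 0.0318), and it also passed without Atf3KO replicate 1 (adjusted p = 0.0460) or replicate 2 (adjusted p = 0.0466). Of 10929 tested genes 49.9% passed in this comparison, so the 2 members stand beside a wide difference between the cells. Fosb was seen mainly in TGEMs, with 72 reads over their 5 libraries against 3 over the 8 iBMDM libraries, so that its rate per read sequenced was 22.7 times as high (7.48 to 113, exact 95% limits, counting error only). Without JunDKO replicate 2, the deepest iBMDM library, it was 11.9 times as high (3.91 to 59.1). The library means were 0.435 ± 0.202 RPKM (SD, n = 5) and 0.0623 ± 0.126 RPKM (SD, n = 8). Markers of fibroblasts and mesothelium summed to 26.99 to 48.8 RPKM in TGEMs, with 5 of 6 at 1 RPKM or more, and to at most 0.115 RPKM in iBMDMs, and lymphocyte markers to 4.31 to 14.7 RPKM against at most 1.17. Eosinophil and mast cell markers summed to 1.27 to 6.52 RPKM in TGEMs and to at most 1.29 in iBMDMs. Their part in the Fosb reads was not tested. Cell kind, culture, date and the difference in Xist reads given above cannot be told apart.

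The related lists are read against the 49.9% of all tested genes that passed between the cell kinds, 33.7% higher and 16.2% lower in Scramble iBMDMs. None of 11 tested AP-1 partners was higher in Scramble iBMDMs by the test and 7 were lower, the 6 largest being Batf (-3.22), Jund (-3.12), Jun (-2.16), Batf3 (-1.69), Atf3 (-1.62) and Batf2 (-1.59), all relative to a median of 0.32 over all tested genes. On the ERK feedback and output list 6 of 9 were higher and 0 lower, led by cyclin D1 (Ccnd1, 5.23) and by Dusp6 (3.72). Of 17 regulators 6 were higher and 5 lower. Among the higher were the kinases Rps6ka5 (2.01) and Mapk14 (1.25), and among the lower the SRF coactivators Mkl1 (-2.12) and Mkl2 (-1.77) and the kinase Mapk3 (-1.77). Of 20 tested immediate-early genes 3 were higher, Myc (2.30), Ier3 (2.21) and Ptgs2 (2.05), and 11 were lower, among them Egr2 (-4.47), Gadd45b (-3.06) and Plk2 (-2.56). The retrovirus that immortalised the iBMDMs carried Myc, and its part in the Myc value was not tested.

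Over the 13 libraries the levels of Fos and Fosl2 on the log2(RPKM + 1) scale had a Pearson's r of 0.86, and of 0.74 within the 8 iBMDM libraries. Fos and Fosl1 had an r of 0.37. Among 10652 genes with a mean of at least 1 RPKM and 200 exonic bases, those most like Fos were Zfp36 (0.92), Nr4a1 (0.92), Ier2 (0.91), Trib1 (0.90) and Rasgef1b (0.90). Those most like Fosl2 were Rcan1 (0.97), Dusp1 (0.96), Trib1 (0.95), Itga5 (0.94) and Dusp5 (0.94). The 3 KLA libraries stand apart in most of these genes. Over the 10 others the r with Fos was 0.38 for Ier2, 0.59 for Trib1, 0.60 for Zfp36, 0.64 for Nr4a1 and 0.83 for Rasgef1b, and the r with Fosl2 ran from 0.73 for Dusp5 to 0.92 for Rcan1. Rcan1 shared with Fosl2 its lowest values, 2.39 and 4.42 RPKM in the Atf3KO libraries, and its 3 highest, 41.6, 65.1 and 49.2 RPKM in the KLA libraries. The nearest genes to Fosl1 were Mpp5 (0.89), Spryd7 (0.85), Coq10b (0.83), Degs1 (0.82) and Tnfrsf26 (0.82), and those to Fosb were Trappc2l (0.91), Pdzk1ip1 (0.90), Nudt16 (0.89), Tceal7 (0.87) and 1810058I24Rik (0.87). For Fosb and Fosl1 these values rest on few reads, 75 and 181 in all. Within the 8 iBMDM libraries alone the r of the genes named for Fosl1 was 0.74 to 0.87, and that of the 4 named for Fosb that could be computed was 0.53 to 0.63. The points share libraries and depth, and the correlations are descriptions without a test.

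**Figure D5:**
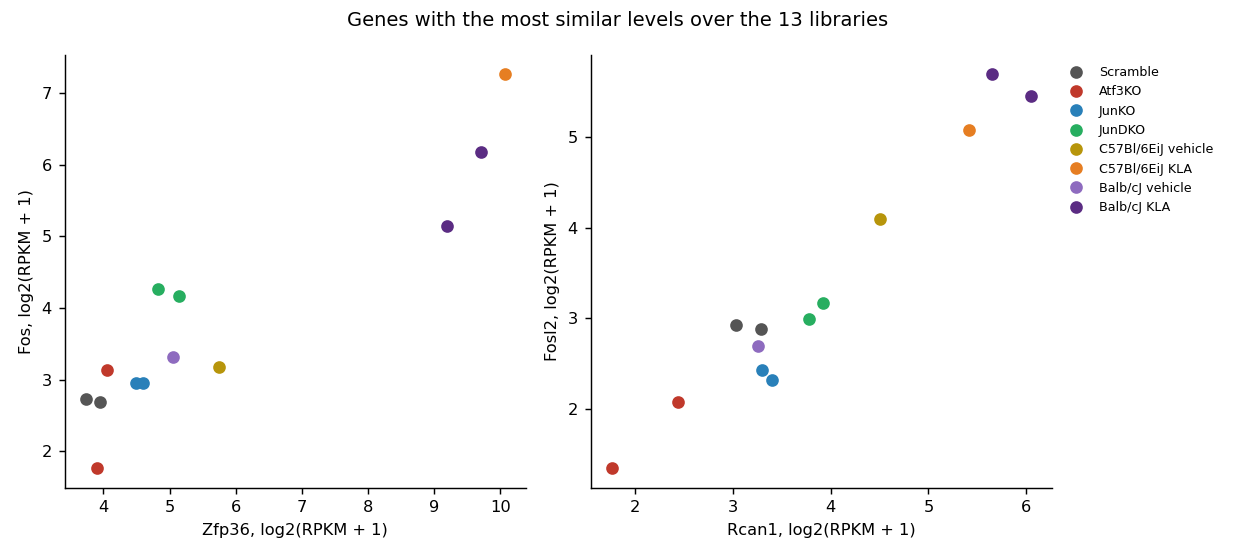
Fos against Zfp36 and Fosl2 against Rcan1, the genes with the highest correlation over the 13 libraries, on the log2(RPKM + 1) scale, 1 point per library coloured by group. The KLA libraries lie apart at the upper right in the Fos panel (r = 0.92), and in the Fosl2 panel (r = 0.97) the libraries of Atf3KO mark the lower end.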

How the data were processed

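The authors mapped polyA RNA-seq reads by STAR, left at its defaults, on mm10 or on a Balb/cJ genome made from it, and counted exons with HOMER with condensed genes. Versions and a strand option were not given in the sources used here, so overlapping antisense reads cannot be separated. The deposited values are RPKM for 13 of 17 samples. GRO-seq (4 samples) was not analysed here.

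RPKM moves in steps of 1 read per gene, which gave depth and reads. All values of few reads, the ones checked, then lay within 0.05 of whole reads or within rounding. Values of many reads were not checked in this way. Depth was 1553296 to 18444443 reads, which sets the counting intervals of low genes.

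Genes whose mean in the fitted libraries reached 1 RPKM were fitted as log2(RPKM + 1) by limma-trend (R 4.3.3, limma 3.58.1): 8 iBMDM libraries in 4 groups (residual degrees of freedom 4), treatment and strain over 5 TGEM libraries (2), their interaction (1), and 8 groups over 13 libraries (5) to compare cell kinds. P values are two-sided, adjusted by Benjamini-Hochberg over all tested genes. Passing means an adjusted p under 0.05. A call also needs 2-fold and 16 RPKM in a group mean. The study's text gives 2-fold in places and, for the knockouts, a log2 fold change of 2 in its methods. Fold changes on this scale understate low genes. Read ratios have exact 95% intervals, and a count of 0 is bounded by the exact 95% limit or, where said, by 3 reads over the group. The code was tested on simulated data, where the iBMDM and cell kind fits passed unchanged genes at close to the nominal rate and the TGEM fits, the interaction most, above it.

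Named are all members, from each list the passing genes (at most 6 by size, 1 of which is not reported here), and per member the 5 genes of highest correlation. Members and lists were chosen with earlier results of these data known. The authors' edgeR test was not repeated. No 2 libraries were identical, and replicates of a group differed beyond counting error. The chi-square per degree of freedom was 3.81 in Scramble, 3.56 in JunKO, 3.83 in JunDKO, 27.4 in Atf3KO and 81.4 in Balb/cJ KLA. Balb/cJ KLA replicates were numbered in accession order. Promoters came from RefSeq (GRCm38.p6). Alternatives were pseudocounts of 0.25 and 5, no filter, equal library medians, quantile normalization, limma-voom on recovered reads, each library left out, a replicate block, other sets of libraries and, chosen after seeing the data, a GC correction, fits without the Atf3KO libraries and the Fosb read ratio without JunDKO replicate 2. Python 3.11.15 was used for other steps.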

Additional observations from a re-analysis of the deposited data

Results flagged for a closer look

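The 2 direct differences below between knockout groups passed their own test. Over Scramble the log2 difference of Fos was 1.51 in JunDKO and, without passing, -0.26 in Atf3KO (limma-trend adjusted p = 0.620, and 0.43 without Atf3KO replicate 1), and the direct difference of Atf3KO from JunDKO was -1.77 (limma-trend adjusted p = 0.00891, both Atf3KO libraries below both JunDKO libraries). That of Fosl2 was -1.19 in Atf3KO and, without passing, 0.18 in JunDKO (adjusted p = 0.712, and -0.08 at equal library medians), with a direct difference of -1.37 (limma-trend adjusted p = 0.00626, again without overlap of the libraries). The range of the adjusted p over 18 alternatives was 0.00143 to 0.0709 for Fos and 8.57e-04 to 0.0504 for Fosl2. Both groups were set against the same Scramble libraries.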

How the results depend on the processing

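The number of members that passed was the same in all alternatives run for JunKO against Scramble (0), Balb/cJ against C57Bl/6EiJ (0) and KLA by strain (0). In Atf3KO against Scramble 1 passed, 2 with no filter on low values (Fosl1 besides Fosl2), and 0 to 2 with a library left out. In JunDKO against Scramble 1 passed and 0 with a pseudocount of 0.25, with no filter, at equal library medians, after quantile normalization and with all 13 libraries in a single fit, and 0 to 1 with a library left out. In Atf3KO against JunKO 0 passed, 1 after GC correction, and 0 to 2 with a library left out. In Atf3KO against JunDKO 2 passed, 0 to 2 with a library left out. In JunDKO against JunKO 0 passed, and 1 with a pseudocount of 5, with the libraries of the compared groups alone and without the Atf3KO libraries, and 0 to 1 with a library left out. In KLA against vehicle 1 passed, 2 by limma-voom and with all 13 libraries in a single fit, 0 with no filter, at equal medians, after quantile normalization and with label date in place of strain, and 0 to 1 with a library left out. In Scramble iBMDMs against vehicle TGEMs 0 passed, 1 with no filter (Fosb), at equal medians, after quantile normalization and against C57Bl/6EiJ alone, and 0 to 1 with a library left out. The causes were not tested.

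Signs turned for Fosl2 in JunDKO at equal medians (-0.0832) and after quantile normalization (-0.0747), where the main value is 0.18. They turned for Fosl1 in KLA by strain (main 0.05) with a pseudocount of 0.25 (-0.0746), at equal medians (-0.00113), after quantile normalization (-0.25) and after GC correction (-0.11). With a library left out the value of Fos ran from -0.94 to 0.43 in Atf3KO against Scramble, from -1.19 to 0.19 in Atf3KO against JunKO and from -1.60 to 0.14 for strain, and that of Fosl2 from -1.40 to 0.49 for strain and from -1.19 to 0.21 for cell kind.

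Over all genes, the counts that passed moved with the processing as well, from 158 for KLA to 57 with no filter, 312 by limma-voom, 440 with all 13 libraries, 71 with label date, 28 without the Balb/cJ vehicle library and 78 without Balb/cJ KLA replicate 1, from 30 for JunKO to 13 to 100, from 239 for strain to 32 to 1076, from 1256 for JunDKO to 409 to 2327, from 870 for JunDKO against JunKO to 228 to 1933, from 4409 for Atf3KO to 2087 to 4636, from 3792 for Atf3KO against JunKO to 1544 to 4023, from 4355 for Atf3KO against JunDKO to 2147 to 5853, and from 0 for KLA by strain to 21 with a pseudocount of 5 and 67 after GC correction.

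Replicate numbers are shared by the iBMDM groups, but deviations of same-numbered libraries correlated between -0.21 and 0.22, and only the 3 pairs without Atf3KO were above 0.1, so the numbers were not taken as a pairing. With the replicate block no count of members changed (Fos in JunDKO 1.51, limma-trend adjusted p = 0.0490, and Fosl2 in Atf3KO -1.19, adjusted p = 0.0198), and over all genes JunKO had 14 in place of 30. With a library left out, the interaction had either no residual degree of freedom or a group of strain and treatment without a library. No value was computed for it. A lone library of a group was assumed to vary like the others. At the depth of Scramble, 1 read of Fosb or Fosl1 is a large part of the value, and no test of them was made in iBMDMs with the filter.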
